A study of Mus musculus with 6 samples.

Results

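The genes described here are the nuclear genes for subunits and assembly factors of mitochondrial complex I, measured by bulk-seq in the mouse spinal cord. Members were all genes whose symbol begins with Ndufa, Ndufb, Ndufc, Ndufs, Ndufv, Ndufab or Ndufaf, without symbols containing -ps, and with an FPKM (fragments scaled to exon length and to the number of mapped fragments) above 0 in at least 1 library. The rule found 45 of 25576 genes, of which 38 are named as subunits and 7 as assembly factors (Ndufaf1 to Ndufaf7). All 45 are protein coding in GENCODE M21, and all 45 were above 0 FPKM in each of the 6 libraries. By name the subunits include Ndufa4, whose product is now assigned to complex IV, and the related Ndufa4l2.

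The series compared whole spinal cord of severe Taiwanese SMA mice on the FVB strain with that of their control mice, taken 4 days after birth. The SMA mice (mSmn-/-, hSMN22tg/0) lack mouse Smn, and control mice (mSmn+/-, hSMN22tg/0) are heterozygous for it, so that both groups carry the human SMN2 transgene and neither is wild type. Each group has 3 libraries, made strand-specific from total RNA after removal of ribosomal RNA. The methods give triplicates with n = 1 per group, so the 3 libraries of a group may not be separate animals, and p-values measure only the spread between libraries. Smn1, the gene targeted in the model, was 10.4, 8.64 and 11.9 FPKM in control and 8.48, 9.30 and 11.1 FPKM in SMA, and the groups overlapped, so the FPKM values give no check of the labels.

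Control replicate 2 stood apart from the other 5 libraries. Its correlation with them over genes was at most 0.849, while the other 5 libraries correlated with each other at 0.983 or more. The 15 hepatocyte markers, all present in the files, summed to 82.2, 28530 and 55.3 in control and 47.0, 104 and 55.9 in SMA FPKM. Albumin (Alb), the most abundant of them, was 44.6, 15894 and 30.7 FPKM in control and 24.6, 56.2 and 30.5 FPKM in SMA, and the defining markers Apoa2, Fgb and Ahsg were above 0 in all 6 libraries. The 7 erythroid markers found of 8 listed summed to 1861, 18823 and 1179 in control and 1115, 1718 and 1332 in SMA FPKM, led by the globin gene Hbb-bs at 661, 7026 and 433 FPKM in control and 424, 694 and 587 FPKM in SMA. Both lists were highest in control replicate 2, so results are given with and without this library, and the part of these transcripts in any difference was not tested.

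The label of the tissue was matched by its markers. The neuronal markers Snap25, Tubb3 and Nefl were at 73.3 to 378 FPKM over all 6 libraries, and the 10 neuronal markers summed to 1793, 1423 and 2129 in control and 2028, 2087 and 2159 in SMA FPKM, lowest in control replicate 2. All 10 had a log2 fold change above 0 (median 0.31), as had 58.0% of all genes tested (median 0.044), and 4 had all SMA libraries above control, against 10.3% of all genes. Without control replicate 2, 8 of the 10 were above 0 (median 0.081), as were 50.4% of all genes (median 0.0016), and 3 were higher at an unadjusted p under 0.05 by limma, against 5.27% of all genes. Markers of skeletal muscle were low, with Acta1 at 0.369 to 3.36 FPKM, Ckm at 0.108 to 1.4998 FPKM and Mylpf at 0 to 0.894 FPKM, at 0 in control replicate 3. The 4 endothelial markers summed to 38.2, 40.1 and 37.4 in control and 27.3, 22.5 and 20.7 in SMA FPKM, and their most abundant gene, the tight junction gene Cldn5, was 25.8, 20.4 and 25.0 FPKM in control and 16.4, 15.7 and 14.4 FPKM in SMA. The endothelial sums were lower in all 3 SMA libraries than in any control library. At an unadjusted p under 0.05 by limma, 3 of the 4 markers were lower with all 6 libraries, against 2.39% of all genes. Without control replicate 2, 3 were lower, against 5.2%. Their median log2 fold changes were -0.66 and -0.58, beside 0.044 and 0.0016 for all genes. The part of these cell types in the differences given for complex I genes was not tested. The 6 astrocyte markers, among them Gfap at 117 to 167 FPKM, summed to 578, 469.8 and 579.7 in control and 548, 589 and 529.6 in SMA FPKM. The 8 markers of the oligodendrocyte lineage, among them Mbp at 375 to 695 FPKM, summed to 838, 802 and 1221 in control and 684, 828 and 854 in SMA FPKM, highest in control replicate 3. The 5 microglial markers, among them P2ry12 at 12.05 to 19.2 FPKM, summed to 48.5, 57.4 and 45.1 in control and 45.3, 49.2 and 44.5 in SMA FPKM. The groups overlapped for these 3 lists. With control replicate 2 left out, 7 of the 8 markers of the oligodendrocyte lineage had a log2 fold change below 0 (median -0.13, beside 0.0016 for all genes), and 2 of them and 1 of the 6 astrocyte markers were lower at an unadjusted p under 0.05 by limma, against 5.2% of all genes. In whole tissue, fewer cells of a type and less RNA per cell cannot be told apart.

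Complex I is the entry point of electrons from NADH into the respiratory chain, and it pumps protons across the inner mitochondrial membrane. Its matrix arm consists of the N module, which oxidises NADH, and the Q module, which reduces ubiquinone. Its membrane arm is built around subunits encoded in mitochondrial DNA, and assembly factors build the modules without remaining in the finished enzyme. Neurons depend on oxidative phosphorylation for much of their ATP, and defects of complex I genes cause Leigh syndrome, which affects the brainstem, basal ganglia and spinal cord.

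Subunit genes were expressed over a wide range of levels per length. The median FPKM over the 6 libraries was above 50 for 9 of 38 subunits, between 20 and 50 for 17, between 10 and 20 for 8 and below 10 for 4. Ndufa4 had the highest level, at 90.0, 72.6 and 83.8 FPKM in control and 85.4, 88.2 and 91.1 FPKM in SMA. Ndufb9, a LYR protein of the distal membrane arm, was 61.2, 72.5 and 54.8 FPKM in control and 62.5, 67.3 and 62.8 FPKM in SMA. Ndufa7, a subunit of the N module, was 58.9, 56.5 and 60.6 FPKM in control and 58.0, 56.4 and 57.0 FPKM in SMA. The libraries of the groups overlapped for Ndufa4, Ndufb9 and Ndufa7, and Ndufb9 shares exon sequence on the same strand with the model gene Gm49356, so its level is uncertain. Without control replicate 2, all SMA values lay above control for Ndufb9 and below control for Ndufa7. The log2 fold change of Ndufb9 was 0.039 with all libraries and 0.15 without control replicate 2, and that of Ndufa7 was -0.038 and -0.064. The subunits with the lowest median were Ndufa4l2, at 0.790, 0.385 and 0.394 FPKM in control and 1.05, 0.648 and 0.510 FPKM in SMA, Ndufa11 and Ndufs5. Ndufa11, a membrane arm subunit, was 5.08, 4.33 and 5.10 FPKM in control and 5.48, 5.59 and 5.34 FPKM in SMA. Its SMA libraries were all above control, with a log2 fold change of 0.15 that did not pass the unadjusted threshold, and of 0.087 without control replicate 2, its lowest library.

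**Figure D1:**
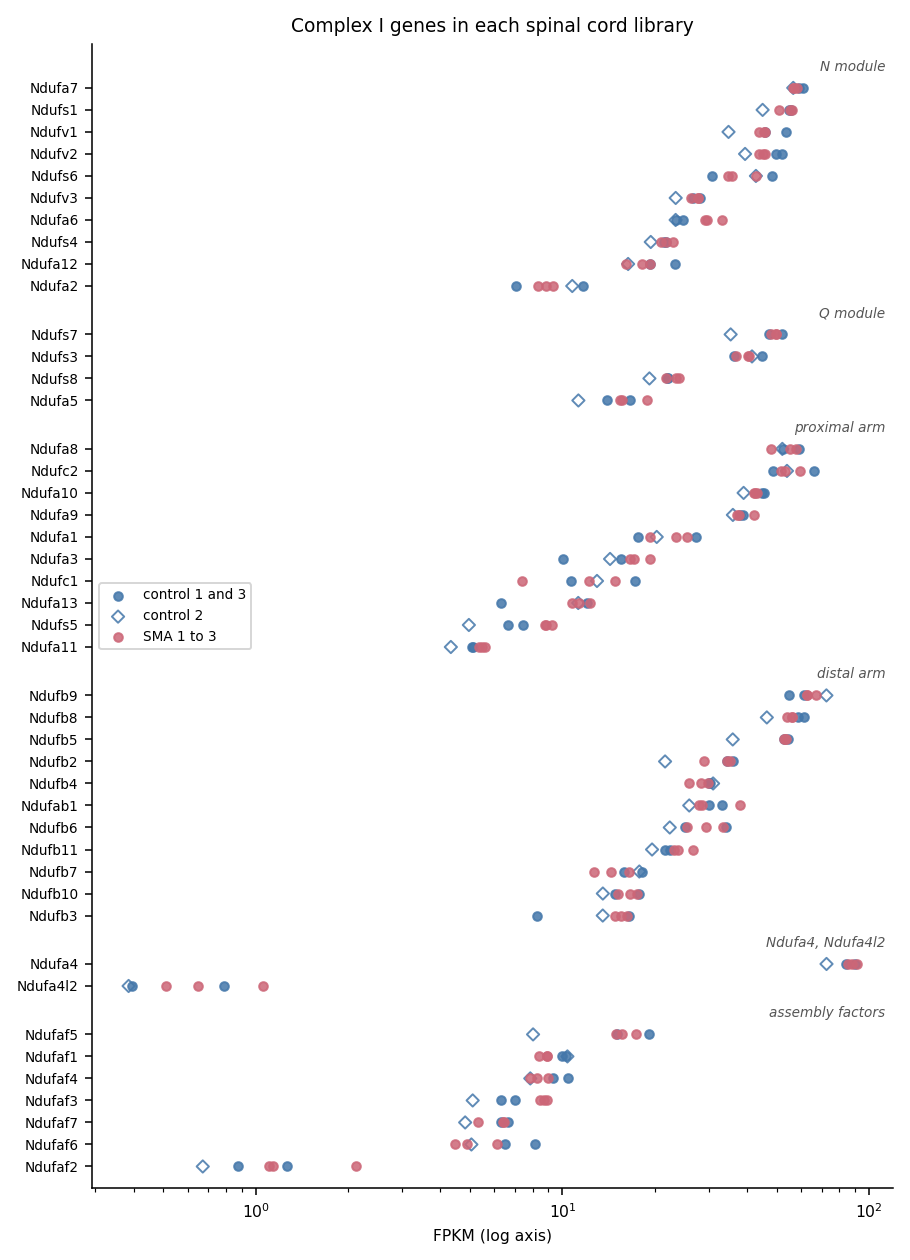
FPKM of complex I genes in each library, on a log axis, with genes grouped by module and ordered by their median. Filled circles are control replicates 1 and 3 (blue) and SMA replicates 1 to 3 (red), and open diamonds are control replicate 2, which was the lowest library for 26 of all 45 members (57.8%), against 44.9% of all genes tested.

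In the N module, the core subunits were expressed at 34.8 to 55.8 FPKM. Ndufs1, which carries iron-sulphur clusters of the electron path, was 54.7, 44.9 and 55.7 FPKM in control and 50.7, 55.8 and 55.3 FPKM in SMA. Ndufv1, which binds FMN and NADH, was 45.8, 34.8 and 53.7 FPKM in control and 45.6, 45.4 and 43.6 FPKM in SMA. The groups overlapped for Ndufs1 and Ndufv1, with the lowest value in control replicate 2. Their log2 fold changes were 0.064 and 0.024 with all libraries, and -0.033 and -0.14 without control replicate 2. Without that library all SMA values of Ndufv1 lay below control. Ndufv2, the iron-sulphur partner of Ndufv1, was 51.8, 39.4 and 49.8 FPKM in control and 43.7, 45.8 and 45.1 FPKM in SMA. The SMA values of Ndufv2 lay below control replicates 1 and 3 and above control replicate 2. Ndufa12, a subunit at the side of the matrix arm, was 19.3, 16.4 and 23.3 FPKM in control and 16.1, 19.2 and 18.1 FPKM in SMA, with overlapping groups and its highest value in control replicate 3. The other N module genes spanned 30.8 to 48.2 FPKM (Ndufs6), 23.4 to 28.2 FPKM (Ndufv3), 19.4 to 23.0 FPKM (Ndufs4) and 7.07 to 11.7 FPKM (Ndufa2). Ndufs4 is the subunit whose loss in mice gives a model of Leigh syndrome.

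In the Q module, Ndufs7, which holds the last iron-sulphur cluster before ubiquinone, was 52.1, 35.3 and 47.3 FPKM in control and 47.9, 49.7 and 49.7 FPKM in SMA. Control replicate 2 was the lowest library for Ndufs7, and its groups overlapped. Ndufs3, a core subunit at the base of the matrix arm, was 36.1, 41.5 and 44.6 FPKM in control and 36.8, 40.6 and 40.1 FPKM in SMA. Ndufs8, which holds iron-sulphur clusters, was 22.04, 19.2 and 21.9 FPKM in control and 23.5, 21.7 and 24.0 FPKM in SMA. The groups overlapped for Ndufs3 and Ndufs8, and Ndufa5, an accessory subunit, spanned 11.3 to 18.9 FPKM.

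In the membrane arm, Ndufa8 and Ndufb7, which like Ndufs5 have twin cysteine motifs and face the intermembrane space, differed in level. Ndufa8 was 58.9, 52.1 and 52.4 FPKM in control and 48.0, 57.7 and 55.4 FPKM in SMA. Ndufb7 was 18.1, 17.8 and 15.8 FPKM in control and 12.7, 14.4 and 16.5 FPKM in SMA. The groups overlapped for both genes, and SMA replicate 1 was the lowest library for each. Ndufab1, the mitochondrial acyl carrier protein, which also serves fatty acid synthesis, was 33.1, 25.9 and 30.0 FPKM in control and 28.5, 27.9 and 37.9 FPKM in SMA, with overlapping groups. Among the other genes of the proximal membrane arm and junction, Ndufc2 spanned 48.7 to 65.9 FPKM and Ndufa10 39.0 to 45.6 FPKM. In the same group Ndufa9 spanned 35.9 to 42.2 FPKM and Ndufa1 17.6 to 27.3 FPKM. In the distal arm, Ndufb8 spanned 46.4 to 61.3 FPKM, Ndufb5 35.9 to 54.5 FPKM, Ndufb2 21.6 to 36.0 FPKM, Ndufb4 25.8 to 31.0 FPKM, Ndufb6 22.4 to 34.2 FPKM, Ndufb11 19.6 to 26.7 FPKM and Ndufb10 13.5 to 17.8 FPKM. Ndufb8 and Ndufb2 share exon sequence with the model genes Gm20538 and Gm42420 on the same strand, so their levels are uncertain.

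Assembly factors were expressed at lower levels than most subunits. Their median in a library was 8.11, 5.10 and 6.65 FPKM in control and 7.84, 8.23 and 8.36 FPKM in SMA. The median of the subunits was 31.6, 23.4 and 29.1 FPKM in control and 28.4, 28.8 and 31.5 FPKM in SMA. Subunits thus lay above assembly factors in every library, and 26 to 35 of the 38 subunits exceeded the most abundant assembly factor of their library. The gap between the mean log2(FPKM + 1) of subunits and that of assembly factors was 1.82 ± 0.15 in control and 1.83 ± 0.057 in SMA (SD, n = 3). The SMA value lay 0.0083 above control, less than either SD, and 0.083 above control replicates 1 and 3, and the groups overlapped. The ratio of median FPKM, subunits to assembly factors, was 3.90, 4.59 and 4.37 in control and 3.62, 3.49 and 3.76 in SMA. All SMA libraries lay below control for this ratio. The groups were thus apart by the ratio of medians and overlapped by the gap of means.

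Among the assembly factors, Ndufaf5, which hydroxylates an arginine of Ndufs7, was 15.1, 8.02 and 19.1 FPKM in control and 15.6, 17.4 and 14.9 FPKM in SMA. Ndufaf7, a methyltransferase that acts in early assembly, was 6.31, 4.82 and 6.65 FPKM in control and 5.29, 6.44 and 6.41 FPKM in SMA. Both were lowest in control replicate 2, and their groups overlapped. Ndufaf4, a partner of Ndufaf3 in building the Q module, was 10.4, 7.85 and 9.31 FPKM in control and 7.84, 8.23 and 8.99 FPKM in SMA, with overlapping groups. Ndufaf2, a paralogue of Ndufa12 that acts late in assembly, was 0.878, 0.672 and 1.26 FPKM in control and 1.13, 1.10 and 2.12 FPKM in SMA, with overlapping groups and the highest value in SMA replicate 3.

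On the log2(FPKM + 1) scale, which understates the change of genes near 1 FPKM, no member passed an adjusted p of 0.05 by limma, and none of the 17088 genes tested did (0%). At an unadjusted p under 0.05, 4 of 45 members (8.89%) were higher in SMA, against 3.4% of all genes tested, and 0 were lower, against 2.39%. None of these 4 also passed a fold difference of 2, as 0.17% of all genes did. The SMA libraries lay all above control for 6 members (13.3%), against 10.3% of all genes, and all below for 2 (Ndufaf1 and Ndufb4, 4.44%), against 6.67%. The median log2 fold change was 0.066 for subunits, 0.031 for assembly factors and 0.044 for all genes tested.

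Without control replicate 2, 16574 genes were tested and 2 passed the adjusted threshold (0.0121%), neither of them a member. At an unadjusted p under 0.05, 4 members were higher in SMA (8.89%), against 5.27% of all genes, and 2 were lower (4.44%), against 5.2%. None passed a fold difference of 2 as well, against 0.139% of all genes. The groups did not overlap for 7 members with SMA above control (15.6%), against 14.2% of all genes, and for 11 with SMA below (24.4%), against 13.9%. The median log2 fold change turned to -0.014 for subunits and -0.090 for assembly factors, beside 0.0016 for all genes tested. The median of assembly factors was also below 0 without SMA replicate 2 (-0.010) and without SMA replicate 3 (-0.0077), while that of subunits turned only without control replicate 2 among the 6 settings that leave out a library. The count of members lower at an unadjusted p under 0.05 by limma was 1 without control replicate 3 (Ndufa2), against 4.16% of all genes, and the count higher was 2 without SMA replicate 2 (Ndufa6 and Ndufaf3), against 1.49%.

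**Figure D2:**
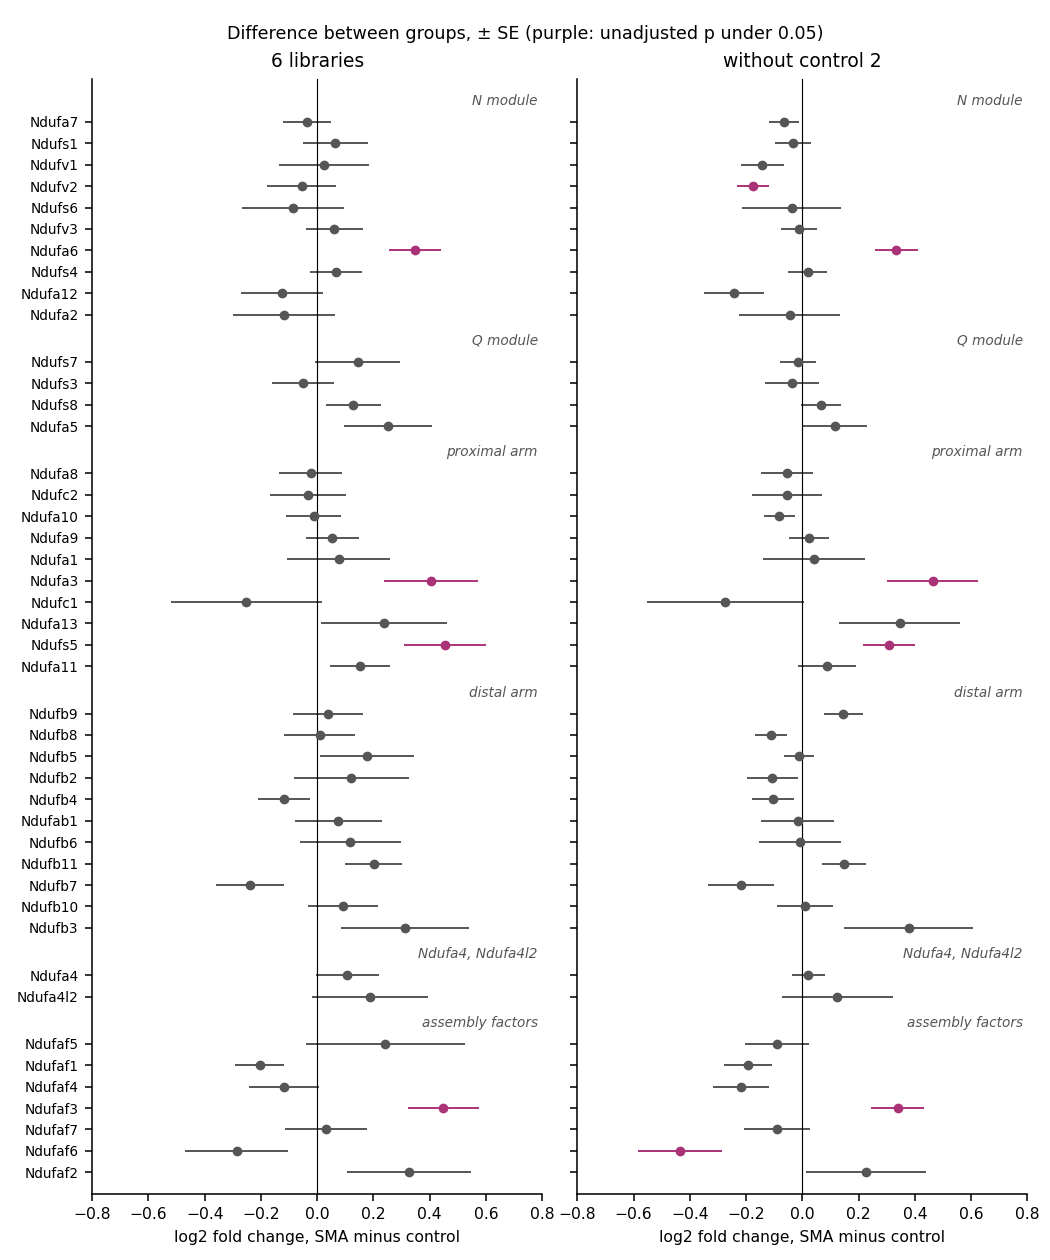
Log2 fold change of complex I genes, SMA minus control on the log2(FPKM + 1) scale, with standard errors as bars, for all 6 libraries (left) and without control replicate 2 (right). Purple marks an unadjusted p under 0.05 by limma, reached by 4 genes on the left and 6 on the right, and no gene passed an adjusted p of 0.05.

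Ndufa6, Ndufs5, Ndufa3 and Ndufaf3 were the 4 members higher in SMA at an unadjusted p under 0.05, with all 6 libraries and without control replicate 2. Ndufa6, a LYR protein that binds the acyl carrier protein at the matrix arm, was 24.8, 23.4 and 23.4 FPKM in control and 29.1, 29.6 and 33.2 FPKM in SMA. Every SMA library exceeded every control library, and the means were 23.8 ± 0.795 in control and 30.6 ± 2.22 in SMA (SD, n = 3). Its log2 fold change was 0.35 (SE 0.093, limma unadjusted p = 0.00803, adjusted p = 0.683) and 0.33 without control replicate 2 (unadjusted p = 0.00286, adjusted p = 0.300). The exact two-sided permutation p was 0.1, the smallest that 3 libraries against 3 allow. The unadjusted p stayed under 0.05 with each of the 6 libraries left out in turn.

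Ndufs5, a twin cysteine subunit on the intermembrane space side of the membrane arm, was 7.45, 4.95 and 6.67 FPKM in control and 8.87, 9.24 and 8.79 FPKM in SMA. All 3 SMA values lay above all control values, and control replicate 2 was the lowest. The log2 fold change of Ndufs5 was 0.45 (SE 0.15, limma unadjusted p = 0.0183, adjusted p = 0.683), and 0.31 without control replicate 2. Without SMA replicate 2 the unadjusted p by limma was 0.0608. Ndufa3, a small membrane arm subunit, was 15.5, 14.3 and 10.05 FPKM in control and 16.6, 17.1 and 19.4 FPKM in SMA. Its SMA values were all above control, with control replicate 3 far below the rest. The log2 fold change of Ndufa3 was 0.40 (SE 0.17, limma unadjusted p = 0.0484, adjusted p = 0.683), and 0.23 without control replicate 3. Its unadjusted p by limma stayed under 0.05 only without control replicate 1 or control replicate 2 among the 6 settings that leave out a library. This unadjusted p by limma was 0.0513 with no minimum FPKM, 0.0963 with median ratio scaling and 0.0552 with quantile normalization. With the replicate number as a block it was 0.0845 by limma.

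Ndufaf3, which acts with Ndufaf4 in assembly of the Q module, was 6.997, 5.10 and 6.32 FPKM in control and 8.42, 8.92 and 8.69 FPKM in SMA. The SMA libraries were close together and all above control, at means of 6.14 ± 0.962 in control and 8.68 ± 0.247 in SMA (SD, n = 3). Its log2 fold change was 0.45 (SE 0.13, limma unadjusted p = 0.00992, adjusted p = 0.683), and 0.34 without control replicate 2. As for Ndufa6, the unadjusted p stayed under 0.05 with each library left out. Its partner Ndufaf4 had a log2 fold change of -0.12, in the opposite direction and not past the threshold. It was -0.22 without control replicate 2, with all SMA values below control, and -0.032 without control replicate 1.

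Ndufaf1, which belongs to the assembly complex of the membrane arm, was 10.2, 10.4 and 9.97 FPKM in control and 8.87, 8.93 and 8.36 FPKM in SMA. Its groups were narrow and did not overlap, with SMA below control. The log2 fold change of Ndufaf1 was -0.20 (SE 0.087, limma unadjusted p = 0.0542, adjusted p = 0.683), just outside the unadjusted threshold, and -0.19 without control replicate 2. Ndufaf6, an assembly factor of early steps, was 8.11, 5.05 and 6.48 FPKM in control and 4.45, 4.87 and 6.10 FPKM in SMA. The groups overlapped through control replicate 2, and without it all SMA values lay below control. The log2 fold change of Ndufaf6 was -0.29 with 6 libraries (limma unadjusted p = 0.164) and -0.44 without control replicate 2 (unadjusted p = 0.0216, adjusted p = 0.411). Without control replicate 1 it was -0.14 (limma unadjusted p = 0.449). Ndufv2 likewise gave -0.056 and, without control replicate 2, -0.18 (limma unadjusted p = 0.0159, adjusted p = 0.387), and 0.018 without control replicate 1. For the other assembly factors the log2 fold change was 0.33 for Ndufaf2, 0.24 for Ndufaf5 and 0.031 for Ndufaf7, and the values of Ndufaf5 and Ndufaf7 turned to -0.090 and -0.090 without control replicate 2. That of Ndufaf2 fell to 0.14 without SMA replicate 3 and was 0.56 with a pseudocount of 0.1.

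**Figure D3:**
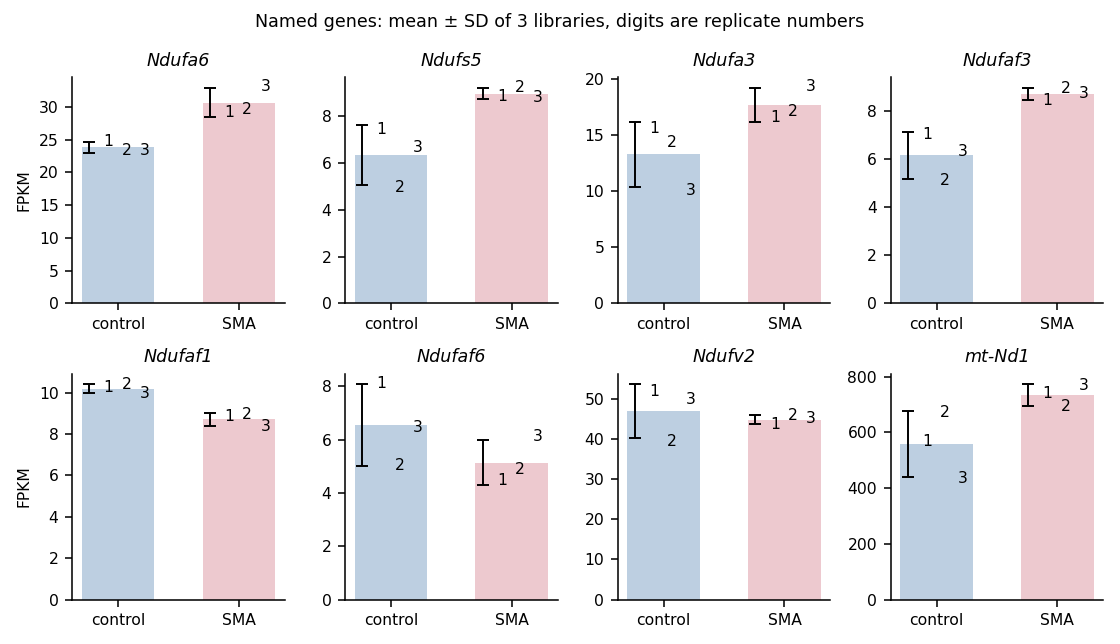
FPKM of 7 complex I genes and of the mitochondrial gene mt-Nd1 in control (blue) and SMA (red). Bars are means, error bars are ± SD of 3 libraries, and digits mark the value of each replicate, with all 3 SMA libraries above control for Ndufa6, Ndufs5, Ndufa3, Ndufaf3 and mt-Nd1 and all below for Ndufaf1.

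Some differences rested on a single library. Ndufb3, a distal arm subunit, was 16.4, 13.5 and 8.25 FPKM in control and 16.2, 15.5 and 14.8 FPKM in SMA. Ndufa13, also known as Grim19, was 12.1, 11.3 and 6.32 FPKM in control and 12.3, 10.8 and 11.3 FPKM in SMA. Control replicate 3 was the lowest library for both, the other 5 libraries lay close together, and the groups overlapped. Their log2 fold changes of 0.31 and 0.24 became 0.052 and -0.025 without control replicate 3. Ndufc1, a small membrane arm subunit, was 10.7, 13.0 and 17.2 FPKM in control and 12.2, 7.38 and 14.8 FPKM in SMA, highest in control replicate 3 and lowest in SMA replicate 2, with overlapping groups. Its log2 fold change was -0.25, -0.082 without control replicate 3 and 0.010 without SMA replicate 2. For Ndufa12 and Ndufb7 the log2 fold changes were -0.12 and -0.24, neither past the unadjusted threshold. Ndufa12 was at -0.24 without control replicate 2 and 0.00043 without control replicate 3, and Ndufb7 at -0.15 without SMA replicate 1.

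Control replicate 3 read low for short transcripts in general. Relative to the mean of the other 4 libraries without control replicate 2, its median log2 difference was -0.18 for all genes tested with transcripts under 600 nt (n = 593), -0.048 for those of 600 to 1000 nt (n = 1187) and -0.00048 for longer ones. For complex I genes the same medians were -0.31 (n = 10), -0.069 (n = 16) and 0.069 (n = 19). The 10 members under 600 nt include Ndufa3 (351 nt), Ndufa6 (590 nt) and Ndufs5 (599 nt), whose values in control replicate 3 were thus read beside this shift. Its part in their differences was not tested, and without control replicate 3 Ndufa6 and Ndufs5 were still higher in SMA at an unadjusted p under 0.05 by limma, while Ndufa3 was not.

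**Figure D4:**
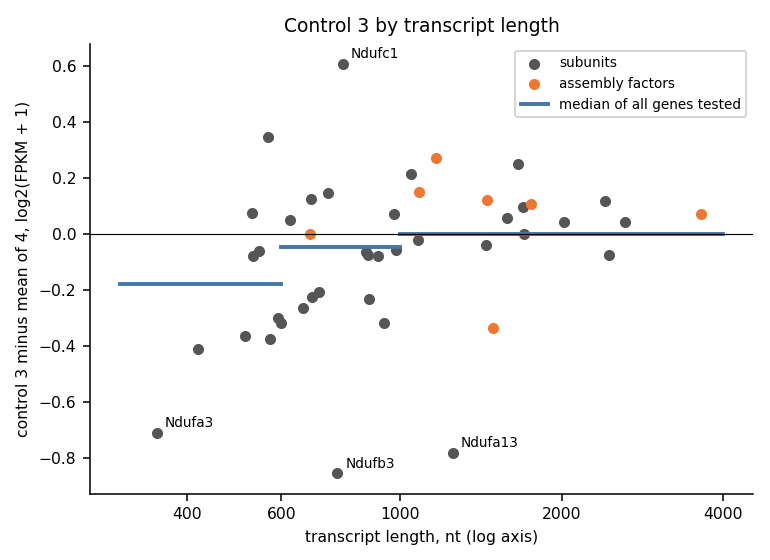
Log2(FPKM + 1) of complex I genes in control replicate 3 minus the mean in control replicate 1 and the 3 SMA libraries, against transcript length in nt on a log axis. Blue lines are medians over all genes tested in 3 length ranges, and the genes more than 0.5 from 0 are named.

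By module, the median log2 fold change was -0.0068 for the N module (10 genes) and 0.13 for the Q module (5 genes). It was 0.065 for the proximal membrane arm and junction (10 genes) and 0.092 for the distal arm (11 genes). Without control replicate 2 these medians were -0.042, -0.016, 0.033 and -0.010. The genes higher at an unadjusted p under 0.05 were 1 of the N module (Ndufa6) and 2 of the proximal arm (Ndufs5 and Ndufa3), with 0 in the Q module and 0 in the distal arm, against 3.4% of all genes tested. Without control replicate 2 the same 3 genes were higher, and 1 gene of the N module was lower (Ndufv2), against 5.2% of all genes lower.

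Control replicate 2 held less of most complex I transcripts. Its FPKM was below the mean of the other 5 libraries for 36 of 45 members (80%), against 63.0% of all genes tested, with a median ratio of 0.849 beside 0.886. Neuronal markers were lower there, at a median ratio of 0.536. The ratio was lowest for Ndufaf5 (0.489) and highest for Ndufa2 (1.19). Over the other 5 libraries, the members had a median coefficient of variation of 8.60%, beside 11.5% for all genes tested. The median was 8.33% for subunits and 11.3% for assembly factors, the latter close to that of all genes. Members were also more abundant, at a median of 23.3 to 25.8 FPKM in these 5 libraries, beside 7.11 to 7.33 FPKM for all genes tested. The part of expression level in these coefficients was not tested. Among members the coefficient was lowest for Ndufb5 (1.43%) and highest for Ndufa4l2 (37.7%), the gene with the lowest level.

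Promoter sequences are shown for 3 members that were higher in SMA at an unadjusted p under 0.05 (Ndufs5, Ndufa6 and Ndufaf3) and for 3 that hold a searched motif (Ndufaf1, Ndufaf4 and Ndufa11). RefSeq windows (GRCm38.p6) of 250 bases before and 50 after the start of transcription were found for 39 of the 45 members. The motif GCGCATGCG, 9 letters of the site of nuclear respiratory factor NRF1, was searched on both strands. It was in the windows of 4 of 39 members (10.3%), Ndufa8, Ndufa11, Ndufaf4 and Ndufaf5, and of 1.95% of all 27025 genes with a window. The motif CCGGAAG of ETS factors such as GABP was in those of 5 members (12.8%), Ndufaf1, Ndufb6, Ndufb7, Ndufs3 and Ndufs8, and of 9.93% of all genes. No window of a member held both, and these letters were not in the windows of Ndufs5, Ndufa6 and Ndufaf3. A match is a description of the letters only, and the shares were not tested. In the sequences that follow, the 250 bases before the start are given 5′ to 3′ on the strand of the gene, with motifs in capitals. They lie at chr4:123718187-123718436 on the minus strand for Ndufs5, chr15:82354292-82354541 on the minus strand for Ndufa6, chr9:108567437-108567686 on the minus strand for Ndufaf3, chr2:119662835-119663084 on the minus strand for Ndufaf1, chr4:24897833-24898082 on the plus strand for Ndufaf4 and chr17:56717512-56717761 on the plus strand for Ndufa11. In Ndufaf4 and Ndufa11 the motif and its reverse complement overlap in 1 run of capitals.
Ndufs5: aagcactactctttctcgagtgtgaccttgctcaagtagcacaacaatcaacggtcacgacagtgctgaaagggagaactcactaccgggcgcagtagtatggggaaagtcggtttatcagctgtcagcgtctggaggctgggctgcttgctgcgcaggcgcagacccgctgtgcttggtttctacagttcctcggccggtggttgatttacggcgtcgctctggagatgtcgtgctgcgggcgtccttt
Ndufa6: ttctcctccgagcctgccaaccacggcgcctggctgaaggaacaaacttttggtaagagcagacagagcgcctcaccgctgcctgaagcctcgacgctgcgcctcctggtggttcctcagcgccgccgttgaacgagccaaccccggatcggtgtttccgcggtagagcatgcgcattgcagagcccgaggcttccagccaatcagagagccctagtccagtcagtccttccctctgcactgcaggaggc
Ndufaf3: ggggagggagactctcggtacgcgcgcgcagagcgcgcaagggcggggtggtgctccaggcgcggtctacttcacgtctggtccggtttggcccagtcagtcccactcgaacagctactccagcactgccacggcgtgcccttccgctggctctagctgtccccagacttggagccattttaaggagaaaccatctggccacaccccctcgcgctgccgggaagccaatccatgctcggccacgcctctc
Ndufaf1: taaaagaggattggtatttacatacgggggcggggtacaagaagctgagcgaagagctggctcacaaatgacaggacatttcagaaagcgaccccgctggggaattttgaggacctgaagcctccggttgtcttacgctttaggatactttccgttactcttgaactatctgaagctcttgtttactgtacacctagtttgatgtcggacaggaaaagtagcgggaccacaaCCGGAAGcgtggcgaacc
Ndufaf4: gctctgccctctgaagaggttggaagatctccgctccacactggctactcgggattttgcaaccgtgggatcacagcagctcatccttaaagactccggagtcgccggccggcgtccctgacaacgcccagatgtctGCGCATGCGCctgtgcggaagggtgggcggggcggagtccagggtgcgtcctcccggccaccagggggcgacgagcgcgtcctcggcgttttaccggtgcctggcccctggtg
Ndufa11: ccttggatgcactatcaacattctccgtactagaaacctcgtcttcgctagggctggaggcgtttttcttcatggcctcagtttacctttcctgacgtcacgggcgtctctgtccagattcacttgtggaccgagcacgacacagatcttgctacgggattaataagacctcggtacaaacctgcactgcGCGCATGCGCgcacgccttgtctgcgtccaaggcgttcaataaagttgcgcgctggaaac

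Subunits encoded in mitochondrial DNA form the proton-pumping core of the membrane arm, and 5 of the 7 were more than 100 FPKM in every library. mt-Nd1, next to the ubiquinone site, was 569, 673 and 434 FPKM in control and 741, 693 and 769 FPKM in SMA. All 3 SMA values lay above control, and control replicate 3 was the lowest. mt-Nd4l, a small subunit, was 148, 178 and 97.5 FPKM in control and 223, 205 and 244 FPKM in SMA, again with SMA above all control values. Its log2 fold change was 0.70 (limma unadjusted p = 0.0181, adjusted p = 0.683), the only 1 of the 7 past an unadjusted p of 0.05 with 6 libraries. The most abundant except in control replicate 3, mt-Nd4, was 620.3, 777 and 426 FPKM in control and 786, 694 and 800.0 FPKM in SMA, and mt-Nd6 was 373, 435 and 228 FPKM in control and 401, 439 and 455 FPKM in SMA, with overlapping groups for both. The other 3 spanned 215 to 408 FPKM (mt-Nd2), 141 to 284 FPKM (mt-Nd5) and 89.9 to 162 FPKM (mt-Nd3). Their median log2 fold change over the 7 genes was 0.37, beside 0.066 for the nuclear subunits and 0.044 for all genes tested. Without control replicate 2, all 7 were higher at an unadjusted p under 0.05, against 5.27% of all genes, with a median of 0.56, beside 0.0016 for all genes, and no adjusted p below 0.264. Without control replicate 3 the median was 0.14, beside 0.065 for all genes, and 1 of the 7 was higher at the unadjusted threshold, against 6.07% of all genes. Without SMA replicate 3 none of the 7 passed it by limma, against 1.25% of all genes higher, and with quantile normalization of 6 libraries 4 were higher, against 3.74%. For mt-Nd4l the log2 fold change was 0.46 without control replicate 3. The 7 transcripts come from the same mitochondrial genome and are not independent of each other.

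Of the 11 complex I assembly factors without an Ndufaf symbol that were found of 12 listed, 0 passed an unadjusted p of 0.05 in either direction, with all libraries (against 3.4% of all genes higher and 2.39% lower) or without control replicate 2 (5.27% and 5.2%). The most abundant were Tmem261 at 15.7 to 24.8 FPKM, Acad9, which also has an acyl-CoA dehydrogenase fold, at 13.2 to 21.2 FPKM, and Ecsit at 11.6 to 16.3 FPKM. Their median log2 fold change was 0.043, and -0.098 without control replicate 2.

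In the rest of the respiratory chain, 0 of 4 genes of complex II, 0 of 9 of complex III, 0 of 10 of complex IV and 1 of 15 of complex V passed an unadjusted p of 0.05 with 6 libraries, against 3.4% of all genes higher and 2.39% lower. The most abundant of each list were Sdhb at 59.1 to 74.9 FPKM, Uqcrc1 at 105 to 126 FPKM, Cox8a at 231 to 273 FPKM and Atp5b at 515 to 597 FPKM. The gene that passed was Atp5l, a membrane subunit of ATP synthase, at 117, 79.3 and 86.1 FPKM in control and 133, 146 and 151 FPKM in SMA. Its groups did not overlap, and its log2 fold change was 0.62 (limma unadjusted p = 0.00710, adjusted p = 0.683), with the unadjusted p under 0.05 in each of the 6 settings that leave out a library. The median log2 fold change was -0.038 for complex II, -0.036 for complex III, -0.017 for complex IV and 0.0059 for complex V, beside 0.044 for all genes tested. These medians were -0.013, -0.055, -0.033 and -0.015 with control replicate 2 left out, beside 0.0016 for all genes. Without control replicate 2, Uqcrc2 of complex III and Cox5b and Cox6a1 of complex IV were lower at an unadjusted p under 0.05, and Uqcrq of complex III and Atp5d and Atp5l of complex V were higher, against 5.2% and 5.27% of all genes.

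Of 8 regulators of mitochondrial genes, 1 was higher in SMA at an unadjusted p under 0.05, against 3.4% of all genes, and 0 were lower. This was Ppargc1b, a coactivator of mitochondrial biogenesis, at 2.88, 2.15 and 2.71 FPKM in control and 3.83, 4.85 and 5.22 FPKM in SMA. All SMA values were above all control values, and its log2 fold change was 0.65 (limma unadjusted p = 0.00371, adjusted p = 0.683). Its relative Ppargc1a was 12.4, 7.39 and 10.4 FPKM in control and 10.4, 12.1 and 11.1 FPKM in SMA, with overlapping groups. Nrf1, which encodes nuclear respiratory factor, was 10.4, 14.3 and 12.6 FPKM in control and 14.8, 13.0 and 12.2 FPKM in SMA, with overlapping groups, and Yy1 spanned 13.3 to 16.5 FPKM.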

How the data were processed

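RNA of 6 spinal cord libraries (3 control, 3 SMA) was sequenced. The deposited FPKM values were computed by the authors for each library with Cufflinks after HISAT2 alignment to mm10, and their versions are not given in the sources used here. A gene that a file does not list was given a value of 0. FPKM holds no counts, so depth in reads is unknown. Relative depth, from the steps of low values, was 1 to 1.15 of that of SMA replicate 1.

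Genes averaging 0.5 FPKM or more were tested on log2(FPKM + 1) with lmFit and eBayes (trend) of limma 3.58.1 in R 4.3.3, two-sided, with Benjamini-Hochberg adjustment over all genes tested. The procedure was tested on simulated data whose spread came from the SMA libraries. That test did not cover a library that stands apart as control replicate 2 does. Exact permutation tests over libraries were added for single genes. Tables were made with Python 3.11.15, numpy 2.4.6 and pandas 2.3.3. Transcript lengths are medians over the transcripts with the longest coding sequence in GENCODE M21.

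Members and lists were chosen with earlier results of these data known. Named genes are all Ndufaf genes, the 7 core subunits, the 3 highest and 3 lowest subunits by median FPKM, the 3 largest differences in each direction with and without control replicate 2, members with an unadjusted p under 0.05 in either fit, Ndufa4, Ndufa4l2, Ndufab1, the LYR and twin cysteine subunits, up to 3 genes per other list, and Smn1. Of these, 1 gene is not reported here. Ndufa2 without control replicate 3, Ndufa11, mt-Nd4l, Ppargc1b and Atp5l were named after their values were seen. So were Atp5d, Uqcrq, Uqcrc2, Cox5b, Cox6a1 and the genes named for their promoters. Alternatives were a pseudocount of 0.1, no minimum or a minimum mean of 1 FPKM, median ratio scaling, quantile normalization, the replicate number as a block, leaving out each library, the subunits without Ndufa4 and Ndufa4l2, and members with a mean of at least 5 FPKM. Scaling of the 5 libraries without control replicate 2 was chosen after seeing the data.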

Additional observations from a re-analysis of the deposited data

How the results depend on the processing

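No member passed an adjusted p of 0.05 by limma under any alternative run, and the smallest adjusted p was 0.288. The count of members higher in SMA at an unadjusted p under 0.05 (4 with all 6 libraries) was 3 to 5 under the scalings, filters and pseudocount (all genes: 3.22% to 5.29%) and 2 to 5 with a library left out (1.25% to 6.07%). The count lower (0) was 1 without a minimum FPKM, 1 with a minimum mean of 1 FPKM and 1 with median ratio scaling (Ndufaf1 in each; all genes: 1.92%, 2.32% and 3.29%), 0 to 2 with a library left out (0.731% to 5.20%), and 2 with either scaling of the 5 libraries without control replicate 2, chosen after seeing the data (5.23% and 5.32%). With the replicate number as a block, 3 members were higher (Ndufa6, Ndufaf3 and Ndufs5, without Ndufa3) and 0 lower (all genes: 2.08% and 1.77%). Deviations of same-numbered libraries from their group means had correlations of -0.037, 0.0161 and 0.0766. Over all combinations of numbers the range was -0.055 to 0.0766, and not every library correlated best with its own number. Control replicate 2 stood apart and enters the control means, so this check cannot show whether the numbers pair libraries.

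The median log2 fold change with a library left out was -0.014 to 0.086 for subunits and -0.090 to 0.11 for assembly factors, and their difference, subunits minus assembly factors, was 0.035 with 6 libraries, -0.063 with quantile normalization, 0.11 for members of at least 5 FPKM, and -0.055 to 0.076 with a library left out. The median of assembly factors was also below 0 with median ratio scaling (-0.018) and for members of at least 5 FPKM (-0.044). Median ratio scaling moved the median of all genes tested as well, from 0.044 to -0.0040. The direction was followed through every alternative run for only 16 of the named members, of which 10 kept it. Ndufs1, Ndufs7, Ndufv1 and Ndufab1 were not among the 16. Without control replicate 2 their log2 fold changes turned below 0, to -0.033, -0.016, -0.14 and -0.016. With a library left out, the log2 fold change ranged from -0.24 to 0.00043 for Ndufa12, -0.025 to 0.39 for Ndufa13, -0.090 to 0.49 for Ndufaf5, -0.090 to 0.11 for Ndufaf7, -0.45 to 0.010 for Ndufc1 and -0.18 to 0.018 for Ndufv2. With median ratio scaling, which also moved the median of all genes tested below 0, it was -0.018 for Ndufaf7. For the 5 libraries without control replicate 2 it was -0.091 for Ndufaf5 and -0.090 for Ndufaf7 with median ratio scaling, and -0.082 and -0.076 with quantile normalization. The cause of these turns was not tested. FPKM gives no counting error, so genes near 1 FPKM (Ndufa4l2, Ndufaf2) are the least certain.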

Other observations

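Ndufaf8, an assembly factor listed under the older symbol 1810043H04Rik and so outside the name rule, was 6.14, 6.78 and 2.35 FPKM in control and 4.07, 5.12 and 3.47 FPKM in SMA. The groups overlapped, with the lowest value in control replicate 3. The processed pseudogene Gm3244, a copy of Ndufb4, was 2.48, 1.55 and 0.615 FPKM in control and 5.12, 2.75 and 3.29 FPKM in SMA. All 3 SMA values lay above control, while Ndufb4 itself had all 3 SMA values below control, at 30.2, 31.0 and 30.0 FPKM in control and 28.2, 25.8 and 29.8 FPKM in SMA. How the authors' processing divided reads between Ndufb4 and this pseudogene is not given in the sources used here, so both levels are uncertain.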
